A study of Mus musculus with 6 samples.

Results

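The ATF4 amino acid response was followed in mouse liver through 35 genes: 7 transcription factors, 5 genes of feedback and growth signalling, 8 enzymes of amino acid and one-carbon synthesis, 3 genes of secreted or membrane proteins, and 12 cytosolic tRNA synthetases. The genes were taken by symbol, from lists chosen with earlier results of these data known. All 35 were found once each among the 52550 gene identifiers of the table. Stc2 had too few counts to be tested, which left 34. The livers came from male mice that were 8 weeks old and had eaten a diet without methionine and choline (MCD) for 1 week. There were 3 transgenic Slc7a11-LTG mice (TG) and 3 control mice (WT), so both groups had the diet and no mouse on another diet is included. The labels give neither the promoter that drives the transgene nor the strain.

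ATF4 is a basic leucine zipper factor made when amino acids run short or other stress phosphorylates the initiation factor eIF2. General translation then falls, while upstream reading frames in the Atf4 transcript let more ATF4 protein be made, so its activity is poorly read from its own mRNA. With C/EBP partners it raises genes that make, import and charge amino acids onto tRNA, and among its known targets is Slc7a11, the cystine-glutamate exchanger subunit that the transgene carries. Methionine is an essential amino acid, and its lack is a classical trigger of this response in liver.

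Libraries held 16016640 to 17463329 counts, and levels are given in CPM, counts scaled to a common library total with TMM factors (trimmed mean of M values). The values of a group stand in the order of its replicates 1, 2 and 3. On this scale 3 counts, the limit that a count of 0 allows, lie at 0.152 to 0.227 CPM in the 6 libraries, which covers counting error only. Slc7a11 was at 4416, 1377 and 2907 CPM in TG and at 2.92, 3.33 and 10.6 CPM in WT, so each library matched its label. Even this gene had an adjusted p of 0.164 in edgeR (log2 fold change 9.001, SE 0.87), and DESeq2 called it at 3.19e-51, so a missed threshold in edgeR says little here about the absence of a difference. WT replicate 3 stood apart from the other controls in the genes described here, and fold changes that rest on it are given with and without it. Its number in the labels is 78, against 49 to 54 for the other 5 mice, and what the number marks is not given in the sources used here.

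None of the 34 tested genes passed the test between TG and WT livers. EdgeR's quasi-likelihood test called 0 of them and 0 of all 14031 genes tested (0%) after Benjamini-Hochberg adjustment. At an unadjusted p under 0.05 it gave 0 of the 34 genes, against 11.1% of all genes. DESeq2 called 0 of the 34 and 2.78% of all genes, and limma voom 0 and 0.00713%. DESeq2 gave no p-value for Nupr1, Mthfd2 and Aldh18a1, so its counts do not cover these genes. Before adjustment DESeq2 had 1 of the 34 genes under 0.05 (Phgdh, against 12.4% of all genes) and limma voom had 2 (Asns and Phgdh, against 8.92%). A positive fold change was found for 9 of the 34 genes (46.2% of all genes), and for 11 when library size alone was used for scaling (that scaling moves the median log2 fold change over all genes by 0.118). Separation of the groups without overlap was seen for 0 of the 34 genes, against 15.4% of all genes (9.22% with TG above and 6.14% with TG below). The median log2 fold change was -0.15 over the 34 genes and -0.03 over all genes.

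The livers nevertheless differed widely, and mostly in the same order. WT replicate 3 had the highest value of all 6 livers for 26 of the 34 genes, against 18.8% of all genes, and WT replicate 1 or 2 had the lowest value for 26, against 39.9%. For 21 of the 34 genes WT replicate 3 was at least 2-fold over the mean of the other 2 controls (6.81% of all genes). With TG replicate 3 set aside, it was the highest of the remaining livers for 28 genes, against 21.6% of all genes. Within TG, replicate 3 was the highest for 25 of the 34 genes, against 31.9% of all genes. Measured as the median of log2(CPM + 0.5) against the mean of the 6 livers, the 34 genes lay at -0.09, -0.09 and 0.28 in TG and at -0.54, -0.31 and 0.79 in WT replicates 1 to 3. The same median over all genes stayed between -0.02 and 0.02. The median SD within WT, on that log2 scale, was 0.85 for the 34 genes and 0.32 for all genes; within TG it was 0.31 and 0.24.

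**Figure D1:**
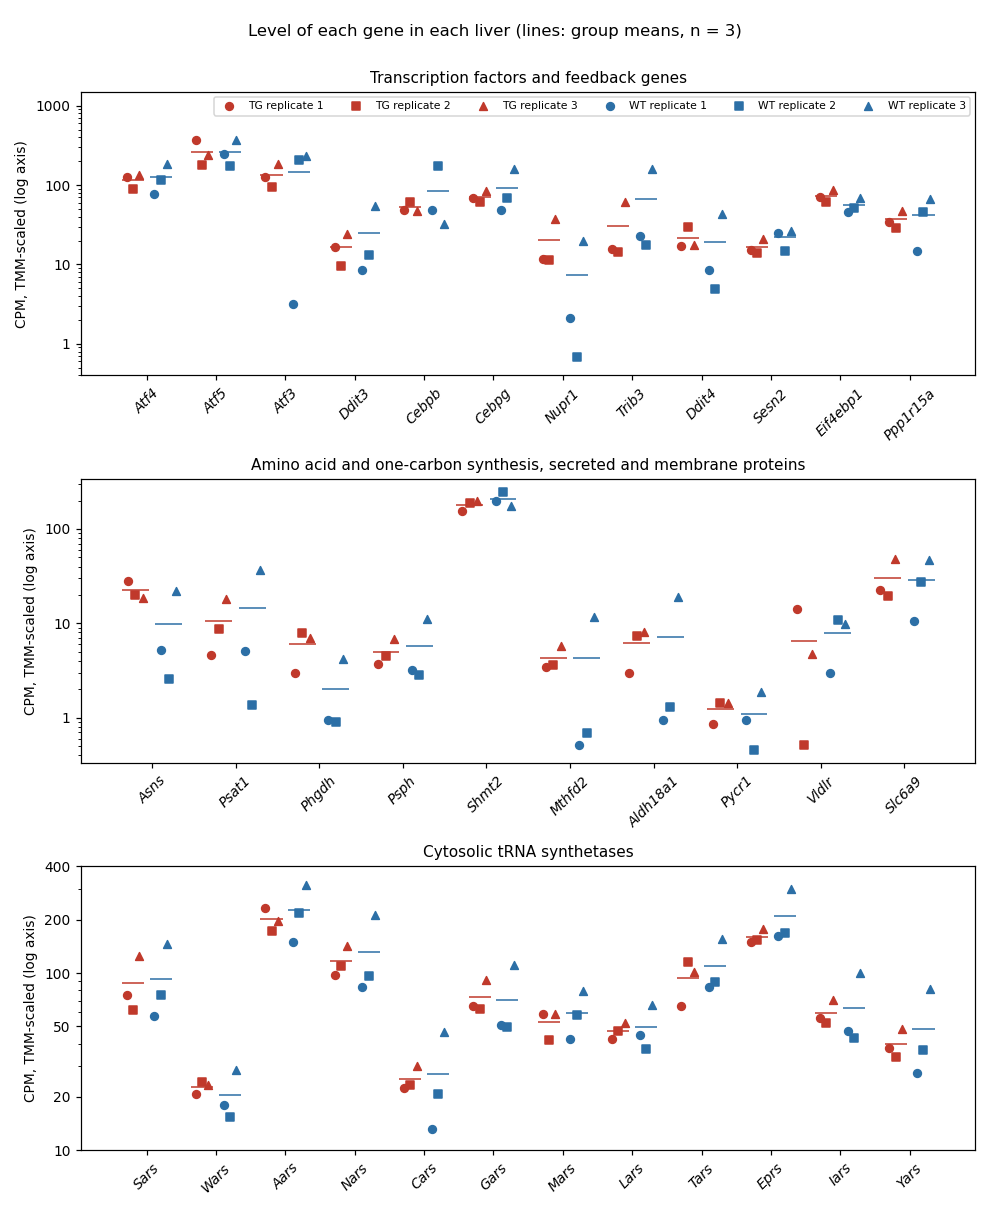
Level of each tested gene in every liver, in TMM-scaled CPM on a log axis, with TG in red, WT in blue, the replicate number as the symbol and lines at the group means (n = 3). WT replicate 3 (blue triangles) is the highest point for 26 of the 34 genes and for all 12 synthetases, while the red points lie inside the blue range or overlap it for every gene.

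Without WT replicate 3 the comparison looked different, although no gene passed the adjusted threshold. A positive fold change was then seen for 29 of the 34 genes, against 9 with all livers. The 3 TG values lay above both remaining WT values for 13 of the 34 genes (18.3% of all genes) and below both for 0 (16.5% of all genes). EdgeR called 0 of the 34 after adjustment, as it did without TG replicate 3, where 2.11% of all genes were called, and 8 of the 34 without WT replicate 3 had an unadjusted p under 0.05 (16.1% of all genes). These 8, all higher in TG (10.2% of all genes were so), were Nupr1, Ddit4, Eif4ebp1, Asns, Phgdh, Mthfd2, Aldh18a1 and Wars. TG replicate 3 was then the highest of the 5 livers for 22 of the 34 genes, against 16% of all genes. WT replicate 3 was singled out after it was seen to be the highest liver for 26 of the 34 genes. Its removal therefore shifts these genes toward TG by itself. The shares over all genes carry no such choice and are not a like reference for these counts.

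**Figure D2:**
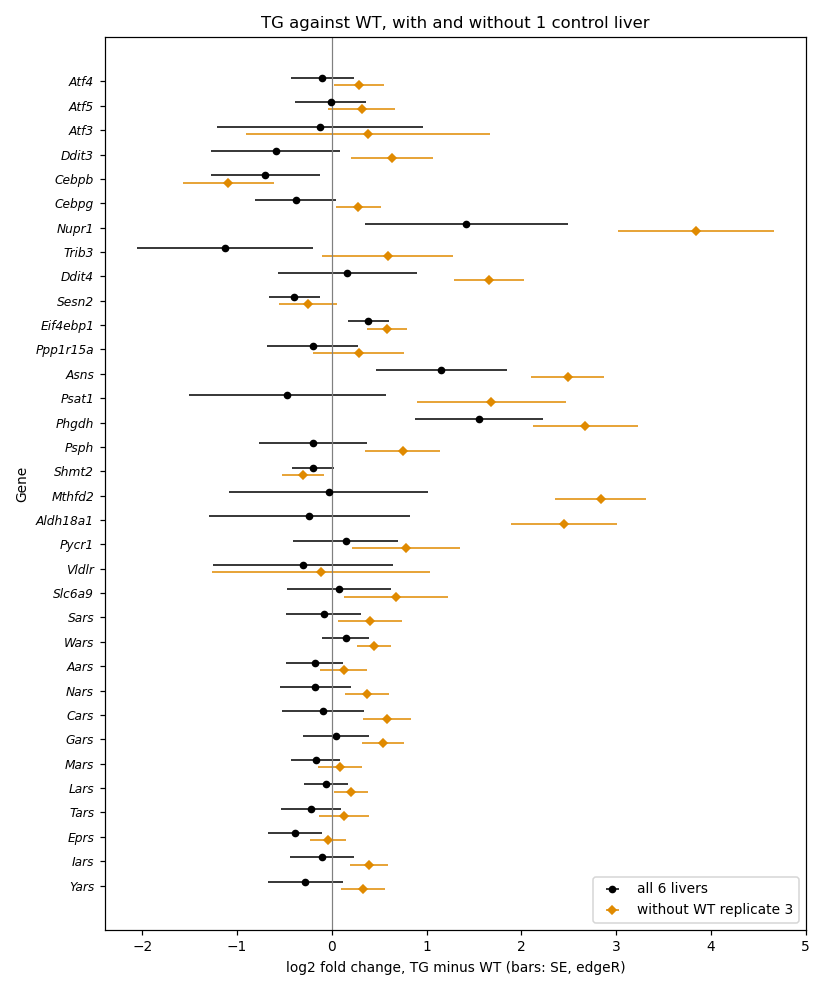
Log2 fold change, TG minus WT, of the 34 tested genes with SE from edgeR, over all 6 livers (black) and without WT replicate 3 (orange). Of the black points 9 lie above 0 and of the orange points 29, and Mthfd2 moves from -0.03 to 2.84.

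Sequences upstream of some of these genes carry the composite element that ATF4 and a C/EBP factor bind together, written here as TGATGNAA. It was searched on both strands in the 250 bases before the transcription start of RefSeq genes (build GRCm38.p6). A window was given for 29 of the 35 genes, and 8 of these held the motif, against 3.91% of 27025 genes with a window. The 8 were Atf3, Nupr1, Asns, Pycr1, Vldlr, Aars, Gars and Tars. Of 8 other cytosolic synthetase and scaffold genes with a window 0 held it, and of 14 mitochondrial synthetases 0. Of 16 other ATF4-linked genes with a window 4 held it, or 25%, close to the 27.6% of the genes described here. A match shows only that these letters are present, and no match says only that they are not in this window. Below, 7 of the stretches are given 5′ to 3′ on the strand of the gene, with the motif, or its reverse complement, in capitals. The search itself fixed every capital letter except the one at N, so the likeness of the capitals is not a result.
Asns (chr6:7693210-7693268, minus strand): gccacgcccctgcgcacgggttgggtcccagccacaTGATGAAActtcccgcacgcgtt
Pycr1 (chr11:120643808-120643887, minus strand): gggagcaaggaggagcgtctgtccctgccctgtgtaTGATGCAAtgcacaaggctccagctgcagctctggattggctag
Atf3 (chr1:191183400-191183479, minus strand): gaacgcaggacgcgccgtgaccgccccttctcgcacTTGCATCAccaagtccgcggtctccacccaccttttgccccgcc
Nupr1 (chr7:126625537-126625616, minus strand): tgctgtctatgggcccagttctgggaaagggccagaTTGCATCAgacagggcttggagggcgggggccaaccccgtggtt
Aars (chr8:111033694-111033773, plus strand): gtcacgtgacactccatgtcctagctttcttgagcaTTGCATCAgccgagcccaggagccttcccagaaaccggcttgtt
Gars (chr6:55037935-55038000, plus strand): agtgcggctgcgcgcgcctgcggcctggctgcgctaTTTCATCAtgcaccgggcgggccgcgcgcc
Tars (chr15:11399659-11399709, minus strand): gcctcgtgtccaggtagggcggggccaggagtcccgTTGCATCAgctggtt
In Atf3, Nupr1, Aars and Tars the capitals are the same 8 letters, the reverse complement of those in Pycr1.

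Atf4 itself (chromosome 15, 80255184 to 80257541, plus strand, build mm10) varied 2.38-fold from the lowest to the highest liver. It was at 128, 90.4 and 132.5 CPM in TG and at 77.2, 115 and 184 CPM in WT. WT replicate 3 was the highest liver, WT replicate 1 the lowest, and the groups overlapped. The log2 fold change was -0.10 (SE 0.33, adjusted p 0.935, edgeR) and 0.29 (SE 0.27) without WT replicate 3. Atf5, a related factor that is also translated under stress, was at 371, 178.5 and 238 CPM in TG and at 248, 173 and 373 CPM in WT. Its values were spread as widely in either group, with a log2 fold change of -0.01 (SE 0.38) that was 0.04 when scaled by library size alone and 0.31 (SE 0.36) without WT replicate 3.

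Atf3, a stress-induced partner and repressor, separated 1 control from all other livers. It was at 126, 94.7 and 186 CPM in TG and at 3.18, 207 and 232.5 CPM in WT. WT replicate 1 thus lay 73.2-fold under WT replicate 3, and the other 5 livers lay between 94.7 and 232.5 CPM. Gdf15, a stress-induced hormone of the other ATF4-linked genes chosen here after its values were seen, had the same low liver, at 9.65 CPM in WT replicate 1 and 196 to 314 CPM elsewhere. Ddit3, which encodes the pro-apoptotic factor CHOP, was instead highest in 1 control, at 8.57, 13.2 and 53.7 CPM in WT against 16.8, 9.49 and 24.0 CPM in TG. Its log2 fold change was -0.59 (SE 0.68, adjusted p 0.795, edgeR) with all livers and 0.63 (SE 0.43) without WT replicate 3.

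Of the C/EBP factors, Cebpg, which pairs with ATF4, followed the common order and Cebpb did not. Cebpg was at 69.1, 60.6 and 84.4 CPM in TG and at 48.6, 69.1 and 161 CPM in WT, and its log2 fold change of -0.38 (SE 0.42) became 0.28 (SE 0.24) without WT replicate 3. Cebpb, a factor of liver metabolism and inflammation, was at 49.2, 61.1 and 46.7 CPM in TG and at 49.2, 174 and 32.0 CPM in WT. It was therefore highest in WT replicate 2 and lowest in WT replicate 3, and its log2 fold change was -0.70 (SE 0.58, adjusted p 0.706, edgeR). Nupr1, a small stress-induced chromatin protein, was at 11.7, 11.5 and 37.3 CPM in TG and at 2.10, 0.681 and 19.6 CPM in WT. All 3 TG livers lay above WT replicates 1 and 2, and WT replicate 3 lay among them. The log2 fold change was 1.42 (SE 1.07, adjusted p 0.674, edgeR) and 3.84 (SE 0.82, adjusted p 0.26) without WT replicate 3.

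Genes that feed back on the response or curb growth showed the largest excess in WT replicate 3 for Trib3, a pseudokinase that restrains ATF4 and CHOP. Trib3 was at 15.7, 14.3 and 61.3 CPM in TG and at 23.1, 17.8 and 158 CPM in WT. The third mouse of each group was the highest there, 7.75 times the mean of the other 2 controls in WT and 4.08 times that of the other 2 livers in TG. Ppp1r15a, the phosphatase subunit GADD34 that reverses eIF2 phosphorylation, was at 34.4, 28.8 and 47.5 CPM in TG and at 14.9, 46.2 and 66.2 CPM in WT. For Trib3 the log2 fold change was -1.13 (SE 0.93), but 0.59 (SE 0.69) without WT replicate 3 and -2.19 (SE 0.97) without TG replicate 3. That of Ppp1r15a was -0.20 (SE 0.48) and turned to 0.28 (SE 0.48) without WT replicate 3.

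The genes that restrain mTORC1 or its output did not share 1 pattern. Ddit4 (REDD1), an mTORC1 inhibitor, was at 16.9, 29.4 and 17.7 CPM in TG and at 8.51, 4.92 and 43.4 CPM in WT. All TG values lay between those of WT replicates 2 and 3, so that the log2 fold change was 0.16 (SE 0.74) and became 1.66 (SE 0.37, adjusted p 0.26, edgeR) without WT replicate 3. Sesn2, a leucine sensor, varied least of these 5 genes, 1.87-fold, from 13.96 CPM in TG replicate 2 to 26.2 CPM in WT replicate 3. Eif4ebp1, a repressor of cap-dependent translation, was at 70.6, 61.4 and 86.3 CPM in TG and at 45.8, 51.4 and 69.7 CPM in WT. Its log2 fold change of 0.39 had the smallest SE of the 5 (0.22, adjusted p 0.575, edgeR), and 2 of the 3 TG livers were above every control.

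**Figure D3:**
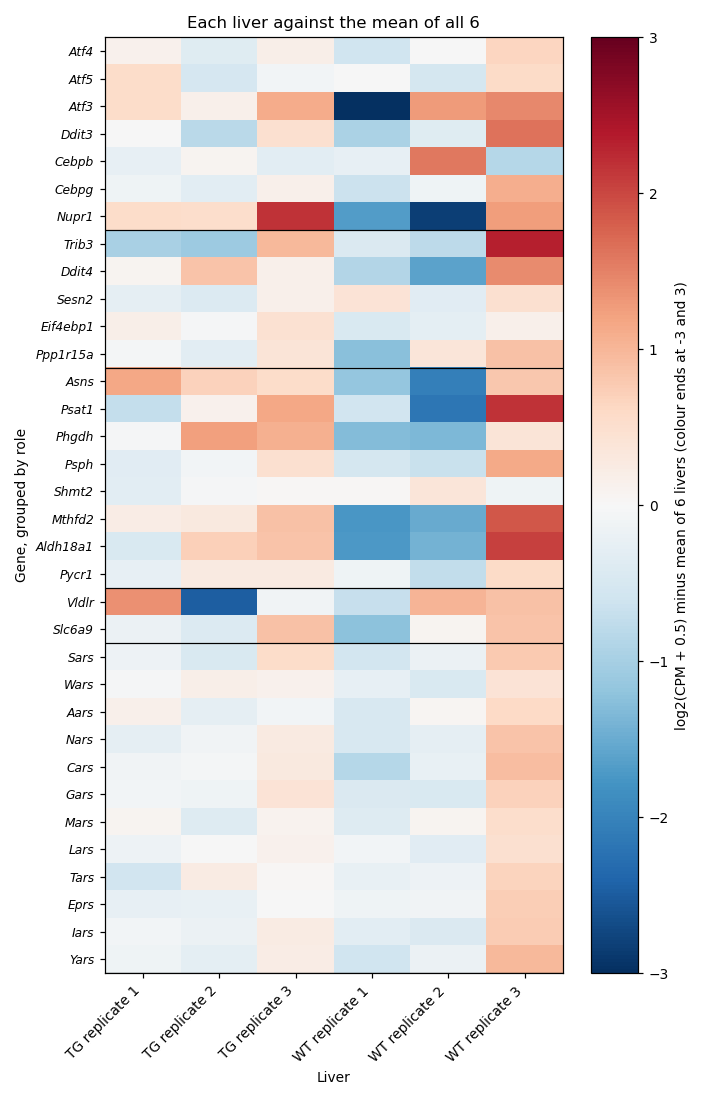
Each tested gene (rows, grouped by role with black lines) in each liver (columns), as log2(CPM + 0.5) minus the mean of the 6 livers, red above and blue below that mean. The column of WT replicate 3 is red except for Cebpb and Shmt2. WT replicates 1 and 2 are blue for Mthfd2, Aldh18a1, Asns, Nupr1 and Phgdh, among others.

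Enzymes of amino acid synthesis were spread widely among controls, with a median excess of WT replicate 3 over the mean of the other 2 controls of 5.02-fold. Asns, which makes asparagine, was at 28.2, 20.2 and 18.4 CPM in TG and at 5.27, 2.57 and 21.8 CPM in WT. WT replicate 3 fell within the TG values, and the other 2 controls were below all of them. The log2 fold change was 1.16 (SE 0.69, adjusted p 0.595, edgeR) with all livers and 2.49 (SE 0.38, adjusted p 0.203) without WT replicate 3. The latter is the smallest adjusted p of any of the 34 genes under the 14 alternatives tried.

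Of the serine synthesis enzymes, Phgdh came closest to a difference between groups. Phgdh, which opens the pathway, was at 2.98, 7.97 and 7.01 CPM in TG and at 0.953, 0.908 and 4.16 CPM in WT. TG replicate 1 lay below WT replicate 3, so the groups overlapped. The log2 fold change was 1.55 (SE 0.68, adjusted p 0.461, edgeR), or 2.68 (SE 0.55) without WT replicate 3, with an adjusted p of 0.251 in DESeq2 and a range of 0.251 to 0.95 over the alternatives. Psat1, the transaminase of the next step, was at 4.62, 8.70 and 18.2 CPM in TG and at 5.14, 1.36 and 36.9 CPM in WT. Psph, the phosphatase of the last step, was at 3.70, 4.46 and 6.86 CPM in TG and at 3.18, 2.80 and 11.1 CPM in WT. The log2 fold change of Psat1 was -0.47 (SE 1.04) with all livers and 1.68 (SE 0.78) without WT replicate 3, and that of Psph was -0.19 (SE 0.57) and 0.75 (SE 0.40). Psat1 and Psph were highest in WT replicate 3, whereas Phgdh was highest in TG replicate 2, so the enzymes of 1 pathway did not share the highest liver. All of them were lowest in WT replicate 2, and TG replicate 1 was the lowest TG liver for each.

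The mitochondrial folate enzymes differed from each other. Mthfd2, an enzyme low in normal adult tissue, was at 3.46, 3.62 and 5.69 CPM in TG and at 0.508, 0.681 and 11.7 CPM in WT. WT replicates 1 and 2 held 8 and 9 reads of this gene and WT replicate 3 held 225, a ratio of WT replicate 3 to the mean of the others of 19.7. Shmt2, which supplies the same pathway from serine, varied 1.60-fold, from 154 CPM in TG replicate 1 to 247 CPM in WT replicate 2. For Mthfd2 the log2 fold change was -0.03 (SE 1.05), and 2.84 (SE 0.48, adjusted p 0.221, edgeR) without WT replicate 3. That of Shmt2 was -0.20 (SE 0.22) and -0.30 (SE 0.22).

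Of the proline synthesis genes, Aldh18a1 resembled Mthfd2 and Pycr1 stayed near the limit of what the depth can show. Aldh18a1 was at 2.98, 7.29 and 8.08 CPM in TG and at 0.953, 1.29 and 19.2 CPM in WT. Each TG liver was above WT replicates 1 and 2 and below WT replicate 3, with a log2 fold change of -0.24 (SE 1.06) that became 2.45 (SE 0.56, adjusted p 0.262, edgeR) without WT replicate 3. Pycr1, the last enzyme of the pathway, held 14, 25 and 28 reads in TG and 15, 6 and 36 in WT, or 0.454 to 1.87 CPM.

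All 12 cytosolic synthetases, the enzymes that load amino acids onto tRNA, were highest in WT replicate 3. The excess over the mean of the other 2 controls was 1.58-fold for Mars to 2.76-fold for Cars, with a median of 2.01, where the median over all genes was 0.997. None passed the test between groups. Their log2 fold changes ran from -0.39 (Eprs, SE 0.28, adjusted p 0.66, edgeR) to 0.15 (Wars, SE 0.25, adjusted p 0.866), with 2 above 0 (Wars and Gars, and also Lars when scaled by library size alone) and a median of -0.14. Without WT replicate 3 the median was 0.35, and 9 of the 12 were highest in TG replicate 3.

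Sars, the seryl enzyme, was at 75.7, 62.1 and 125 CPM in TG and at 57.6, 75.2 and 146 CPM in WT. Replicate 3 was the highest of both groups. Cars, the cysteinyl enzyme, was at 22.5, 23.5 and 29.9 CPM in TG and at 13.2, 20.7 and 46.8 CPM in WT. Its lowest and highest livers were both controls, 3.54-fold apart. Yars, the tyrosyl enzyme, was at 38.0, 33.6 and 48.5 CPM in TG and at 27.2, 36.8 and 81.5 CPM in WT, and Iars, the isoleucyl enzyme, at 55.6, 51.99 and 70.5 CPM against 47.2, 43.2 and 100.6 CPM. In both, WT replicate 3 was the highest liver and TG replicate 3 the next, while the lowest was WT replicate 1 for Yars and WT replicate 2 for Iars. Nars, the asparaginyl enzyme, was at 96.9, 109 and 142.5 CPM in TG and at 83.9, 96.5 and 213 CPM in WT, so that all TG livers were above 2 of the 3 controls, as also for Wars, Cars, Gars and Iars.

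Aars, the alanyl enzyme, was at 233, 172.5 and 198 CPM in TG and at 150, 219 and 316 CPM in WT, and here TG replicate 1, not 3, was the highest TG liver. Gars, the glycyl enzyme, was at 64.8, 62.6 and 91.2 CPM in TG against 50.8, 49.5 and 112 CPM in WT. Eprs, the joint glutamyl and prolyl enzyme, was at 150.5, 153 and 178 CPM in TG against 163, 168 and 299.7 CPM in WT. For Eprs TG replicates 1 and 2 lay under all controls, whereas for Gars they lay above WT replicates 1 and 2 and below WT replicate 3. Tars, the threonyl enzyme, was at 65.4, 115 and 101 CPM in TG against 83.3, 88.7 and 156 CPM in WT, and was lowest in TG replicate 1.

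The remaining synthetases were Wars (tryptophanyl), which ran from 15.4 to 28.3 CPM over the 6 livers, Lars (leucyl), from 37.1 to 66.2 CPM, and Mars (methionyl), from 41.7 to 79.1 CPM. Lars varied least, 1.78-fold. Mars, the enzyme for the amino acid that the diet lacks, was at 58.7, 41.7 and 59.0 CPM in TG and at 42.3, 58.0 and 79.1 CPM in WT. In level per kilobase of exon model, Nars was the highest of the 12 in both groups (26.7 CPM per kilobase in TG, 30.1 in WT) and Cars the lowest (3.84 and 4.08). The exon model joins all annotated exons of a gene, 18102 bases for Eprs and 4355 for Nars. Genes are thus compared only roughly, and their order depends on the annotation.

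Genes of membrane and secreted proteins gave 3 different pictures. Slc6a9, a glycine transporter, was at 22.7, 19.4 and 48.4 CPM in TG and at 10.7, 27.5 and 47.5 CPM in WT, again highest in replicate 3 of each group. Vldlr, a lipoprotein receptor, was at 14.03, 0.509 and 4.77 CPM in TG and at 2.98, 10.97 and 9.83 CPM in WT. TG replicate 2 held 9 reads of it, and the groups overlapped, with a log2 fold change of -0.30 (SE 0.95). Stc2, a secreted glycoprotein, held 0 to 8 reads a library and gave no comparison.

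Genes upstream in the pathway varied less between livers. Of 17 genes of the eIF2 kinases, their helpers and the eIF2 complex, 16 were matched and tested (Gcn1 was not matched by that symbol). After adjustment 0 passed with edgeR (0% of all genes), DESeq2 (2.78%) or limma voom (0.00713%). Against 11.1%, 12.4% and 8.92% of all genes with these tools in turn, 0 of the 16 had an unadjusted p under 0.05. Their medians against the mean of the 6 livers ran only from -0.10 in WT replicate 1 to 0.11 in WT replicate 3. These were the same ends as for the 34 genes. WT replicate 3 was the highest liver for 6 of the 16, against 18.8% of all genes. Eif2ak3, which encodes the kinase PERK, was nonetheless at 28.8, 23.9 and 36.8 CPM in TG and at 10.7, 24.5 and 33.4 CPM in WT; it was chosen after its values were seen. By the smallest p, the leading genes were Eif2b1 (a log2 fold change of -0.29, SE 0.15), Impact (0.50, SE 0.30), Eif2b3 (-0.35, SE 0.23) and Eif2ak2 (0.35, SE 0.30).

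Among 20 other ATF4-linked genes, WT replicate 3 was the highest liver for 9 (18.8% of all genes). After adjustment 0 of the 20 passed edgeR's test (0% of all genes). At an unadjusted p under 0.05, 3 were higher in TG (8.68% of all genes) and 0 lower (2.37%). DESeq2, which gave no p-value for Fgf21, called 1 of the 20 (2.78% of all genes), and limma voom called 0 (0.00713%). That gene was Slc3a2, the partner subunit of the Slc7a11 product, at 207, 153 and 240 CPM in TG and at 29.5, 34.4 and 98.7 CPM in WT. All TG livers were above all controls, and WT replicate 3 was the highest control, as it was for Slc7a11. The other leading genes were Rab32, a small GTPase (log2 fold change 0.77, SE 0.26), Jdp2, a bZIP factor (1.21, SE 0.44), and Slc1a4, a neutral amino acid transporter (1.09, SE 0.75).

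Fgf21, Slc7a1 and Chac1, chosen after their values were seen, were also highest in WT replicate 3. Fgf21, the fasting and stress hormone of liver, was at 114, 51.3 and 104 CPM in TG and at 21.7, 30.0 and 233 CPM in WT. Slc7a1, a cationic amino acid transporter, was at 5.59, 7.69 and 7.72 CPM in TG and at 1.65, 0.983 and 14.2 CPM in WT. Chac1, which breaks down glutathione, was at 3.95, 8.93 and 9.24 CPM in TG and at 1.52, 7.49 and 24.4 CPM in WT. The lowest liver was WT replicate 1 for Fgf21 and Chac1 and WT replicate 2 for Slc7a1.

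In the cytosol, synthetases outside the 12 shared the peak in WT replicate 3 to a lesser size, but not the rest of the order. Of 11 other cytosolic synthetase and scaffold genes, WT replicate 3 was highest for 10 (18.8% of all genes). The median ratio to the other 2 controls was 1.31. The exception was Qars, at 52.3 to 60.1 CPM over the 6 livers. Medians of the 11 against the mean of the 6 livers were -0.166, -0.182 and 0.096 in TG and -0.155, 0.054 and 0.319 in WT. Of 17 mitochondrial synthetases WT replicate 3 was highest for 6 (18.8% of all genes), with a median ratio of 1.03. With edgeR 0 of either list passed after adjustment (0% of all genes), as with DESeq2 (2.78%) and limma voom (0.00713%). Each tool had 1 gene at an unadjusted p under 0.05, the mitochondrial Nars2. The shares of all genes under that p were 11.1% with edgeR, 12.4% with DESeq2 and 8.92% with limma voom. Nars2 was at 7.96, 9.27 and 10.5 CPM in TG and at 13.8, 15.6 and 15.2 CPM in WT, so all TG livers were lower (log2 fold change -0.68, SE 0.20, adjusted p 0.343, edgeR). Hars2 (-0.24, SE 0.15), Rars2 (-0.28, SE 0.18) and Fars2 (-0.28, SE 0.20) followed it. In the cytosolic list the smallest p belonged to Dars (-0.26, SE 0.16), Aimp1 (-0.27, SE 0.18), Hars (-0.26, SE 0.19) and Aimp2 (-0.50, SE 0.44).

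**Figure D4:**
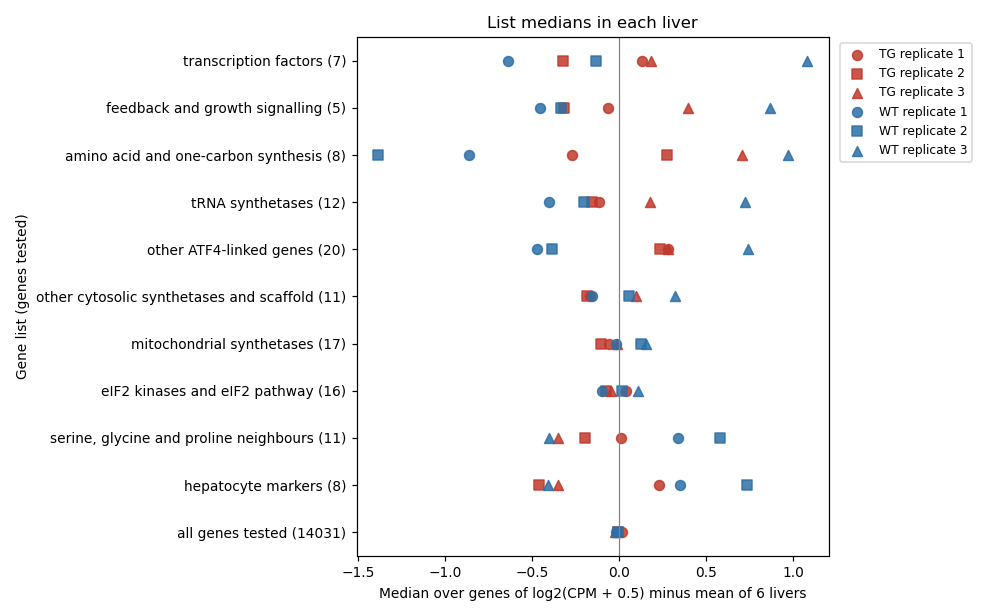
Median over the genes of each list of log2(CPM + 0.5) minus the mean of the 6 livers, 1 symbol for each liver, with the number of genes tested in brackets. WT replicate 3 lies highest for the factors, feedback genes, synthesis enzymes, synthetases and other ATF4-linked genes (0.72 to 1.08). It is also highest, by less, for the other cytosolic synthetases (0.319), the mitochondrial synthetases (0.154) and the eIF2 genes (0.107). For the serine, glycine and proline neighbours and the hepatocyte markers it lies at -0.40 and -0.41.

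Genes that use or convert serine, glycine and proline in liver had a different order from the synthesis enzymes. Of 12 listed, 11 were matched and tested (Pycr3 was not matched by that symbol). WT replicate 3 was the highest liver for 0 of them (18.8% of all genes). Sds, a serine dehydratase chosen after its values were seen, was at 113, 113 and 109 CPM in TG and at 263, 236 and 44.4 CPM in WT. WT replicate 3 was the lowest liver there. With edgeR 0 of the 11 passed after adjustment (0% of all genes), and 2 were lower in TG at an unadjusted p under 0.05 (2.37%). DESeq2 and limma voom each called 0 of the 11 (2.78% and 0.00713% of all genes). Both had the same 2 before adjustment (12.4% and 8.92% of all genes, in either direction). These were Prodh, the first enzyme of proline breakdown (log2 fold change -0.76, SE 0.25), and Shmt1, the cytosolic counterpart of Shmt2 (-0.64, SE 0.26). Gcsh, a carrier protein of the glycine cleavage system, was next (-0.42, SE 0.21).

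Markers of liver cell types did not follow the order of the 34 genes in 1 way. In bulk tissue fewer cells of a type and less RNA per cell cannot be told apart. Hepatocyte markers were abundant in every liver, as the tissue label says; their summed level over 8 genes, Alb and Apoa1 the highest, was 86720 to 102100 CPM in TG and 90310 to 169700 CPM in WT, with WT replicate 3 the lowest control and TG replicate 3 the lowest TG liver. The 3 erythroid markers, Alas2 and Hbb-bs the highest, were summed to 24.7 to 41.5 CPM in TG and 16.1 to 47.1 CPM in WT, and replicate 3 was again the lowest of each group. The 10 macrophage markers, all with a positive fold change, were at 583 to 3356 CPM in TG and 320 to 560 CPM in WT, lowest of TG in replicate 3. The 8 neutrophil markers were at 5.28 to 212 CPM in TG and 2.72 to 6.99 CPM in WT, with Ly6g, Mpo, Camp and Ltf at 0 in at least 1 library. The 13 clock genes were summed to 438 to 850 CPM in TG and 814 to 1182 CPM in WT. The part of cell composition or hour of collection in the spread of the 34 genes was not tested.

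Some counts are uncertain because the strand setting of the counting is not given in the sources used here. Ddit3 and Mars share 68 bases of exon on opposite strands, Psph shares 452 with Cct6a, Cebpb shares 312 with Tmem189, and Slc6a9 shares 1429 with Ccdc24, which held at most 6 reads a library. Reads there cannot be assigned to 1 gene without the strand. Aars shares 1326 bases with Exosc6 on the same strand, where strand would not separate them, and Exosc6 was at 0 counts in every library.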

How the data were processed

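The deposited table holds raw counts of reads, as whole numbers, for each Ensembl gene in 6 liver libraries, 3 TG and 3 WT. Per the submitters' processing notes TopHat, Cufflinks and build mm10 were used, without versions. Details of counting program, annotation and strand were not given in the sources used here. GEO's labels name genomic DNA, but per the labels' protocols RNA was taken up in Trizol. Symbols matched 52403 of 52550 identifiers, and the other 147 held at most 0.0034% of a library. Coordinates and exon lengths came from GENCODE M21 of the same build, promoters from RefSeq.

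Genes passing filterByExpr (14031) entered the quasi-likelihood test of edgeR (4.0.16, R 4.3.3, TMM, robust, group only), two-sided, Benjamini-Hochberg adjusted over all genes, threshold 0.05. SE is the fold change over the root of F. The fits were tested on simulated counts. DESeq2 (1.42.0), limma voom (3.58.1), other scalings and filters, a replicate block, and leaving out each library were alternatives. An exact permutation test of 3 against 3 cannot go below p = 0.1, so none is given. The replicates are separate mice per the series' design text.

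Members and lists were chosen with earlier results of these data known. Named genes are all 35 members, up to 4 genes of smallest p in each neighbouring list, and the 2 most abundant markers of lists described; others are said to be chosen after their values were seen.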

Additional observations from a re-analysis of the deposited data

How the results depend on the processing

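No gene of the 34 passed an adjusted p of 0.05 under any of the 14 alternatives, and the smallest was 0.203. DESeq2 gave no p-value for Nupr1, Mthfd2 and Aldh18a1, so that alternative does not cover them. Over all genes DESeq2 called 390, limma voom 1 and edgeR without TG replicate 3 305; other omissions called 0. EdgeR with the replicate block called 0 genes. The labels give no pairing behind the replicate numbers, and the values do not settle whether there was 1. Deviations of same-numbered livers correlated at 0.15, -0.22 and 0.11. TG replicates 1 and 3 correlated best with their own number, and TG replicate 2 did not. WT replicate 3 was highest for 25 to 26 genes under the other scalings, an alternative chosen after seeing the data. Non-overlapping groups, 0 with all livers, numbered 1 to 13 with 1 left out, a looser criterion with fewer livers; the 13 came without WT replicate 3. Medians of log2 fold change ranged from -0.455 to 0.583 for the feedback genes, -0.361 to 2.068 for the synthesis enzymes, -0.376 to 0.348 for the synthetases, each highest without WT replicate 3. Of 476 fold changes under the alternatives, 416 kept their direction. The sign turned positive with limma voom for Atf5 (0.028), Atf3 (1.289), Ppp1r15a (0.015), Psat1 (0.334), Mthfd2 (1.185), Aldh18a1 (0.825), Cars (0.077), Iars (0.006). The sign turned positive scaled by library size alone for Atf5 (0.038), Lars (0.018). The sign turned positive with the replicate block for Atf3 (0.71), Psat1 (0.321), Psph (0.046), Mthfd2 (1.245), Aldh18a1 (0.897), Cars (0.096). Leaving out 1 library at a time reversed the log2 fold change of 27 genes, with these ranges: Atf4 -0.355 to 0.286, Atf5 -0.343 to 0.314, Atf3 -0.699 to 0.382, Ddit3 -1.003 to 0.633, Cebpb -1.091 to 0.365, Cebpg -0.693 to 0.281, Trib3 -2.185 to 0.59, Ddit4 -0.288 to 1.656, Ppp1r15a -0.608 to 0.283, Psat1 -1.167 to 1.684, Psph -0.524 to 0.748, Mthfd2 -0.555 to 2.837, Aldh18a1 -0.754 to 2.453, Pycr1 -0.206 to 0.785, Vldlr -1.573 to 0.238, Slc6a9 -0.471 to 0.676, Sars -0.462 to 0.404, Wars -0.025 to 0.449, Aars -0.412 to 0.128, Nars -0.413 to 0.369, Cars -0.419 to 0.583, Gars -0.183 to 0.541, Mars -0.369 to 0.086, Lars -0.233 to 0.205, Tars -0.391 to 0.126, Iars -0.319 to 0.393, Yars -0.566 to 0.328. The cause was not tested. With 3 livers a group and controls this far apart, the interval of each fold change is wide, and genes with few reads, such as Pycr1 and Stc2, are limited by depth.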
